A study of Mus musculus with 4 samples.

Results

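Serine/threonine phosphatases of the families PP1 to PP6 remove phosphate from serine and threonine side chains, and their genes were examined in B16F10 cells with and without a hairpin against Lmna. Members were all rows of the count matrix whose symbol begins with Ppp, a family digit from 1 to 6 and then c (catalytic) or r (regulatory), with Ppp1r15a left out. This rule found 79 of 24421 rows, of which 11 are catalytic subunit genes, 62 are regulatory subunit genes and 6 are pseudogenes or transcripts of the opposite strand. B16F10 is a melanoma line of the C57BL/6 mouse strain. The 2 shControl libraries came from cells stably carrying a control lentivirus, which GEO's label calls a control shRNA and the study's list of reagents gives as an empty vector with puromycin resistance. The 2 shLmna libraries came from cells stably carrying a lentivirus whose hairpin targets Lmna. That gene encodes the A-type lamins A and C, filament proteins that line the inside of the nucleus. Cells of both kinds had been selected with puromycin and expanded. Separate transductions or cultures are not stated for the replicates, so that p-values measure the spread between these libraries, and effects of the hairpin and of the selected line cannot be told apart.

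A phosphatase of these families is rarely a lone protein. A small number of catalytic subunits pair with many regulatory subunits, which place the enzyme at its substrates or block it. PP1 binds its regulators as pairs, PP2A is built as a trimer of a scaffold, a catalytic subunit and a variable B subunit, and calcineurin (PP3) joins a calmodulin-binding A subunit with a calcium-binding B subunit. PP4 and PP6 have catalytic subunits related to that of PP2A with regulators of their own, while PP5 carries its regulatory domain in the same chain. PP1 and PP2A are best known for reversing the phosphorylation of mitosis, of actin and myosin regulators and of growth signalling, and PP1 for removing mitotic phosphates from the lamina.

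RNA was read at its 3′ end by bulk MARS-seq, and a count is a sequenced 3′ tag. Tags carried molecular identifiers, but it is not stated whether copies of a molecule had been merged in the matrix used here, so that counts may include such copies and counting intervals may be too narrow. Levels are given as CPM (a count scaled to a common library size by TMM), and are not divided by transcript length because each transcript is tagged at its end. Totals ran from 2494880 to 3808843 counts per library, and members took 0.443% to 0.472% of them. Counts of Lmna were 2826 for shControl 1, 2684 for shControl 2, 331 for shLmna 1 and 480 for shLmna 2, a log2 fold change of -2.61 (SE 0.142, adjusted p = 7.93e-06). Of the melanocyte genes, Pmel, Mlana, Tyrp1 and Dct had 6028 or more counts in every library, while Tyr, the gene of tyrosinase, was at 1 and 1 counts for shControl and 3 and 7 for shLmna. The 8 markers of other cell types had between 0 and 13 counts in every library. Differences are log2 fold changes of shLmna against shControl from edgeR, with p adjusted over 9150 tested genes, and n = 2 per group throughout.

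Sequence ahead of the start site is shown for Ppp2ca, the catalytic gene that fell, and for the members that share an element with it there. In the RefSeq table of GRCm38.p6, 59 of the 79 members had an entry, 72 start sites in all. The cyclic AMP response element, a site for factors of the CREB and ATF family, was searched as the 8 letters TGACGTCA, which read the same on both strands. It was found in the 250 bases before the start in 4 of 72 member start sites (5.56%) and in 1.55% of 32851 start sites of all genes. The 4 sites belong to Ppp2ca, Ppp1r12c and Ppp2r2d, the last with a pair of start sites that share 1 element. Each line below gives 30 bases of the coding strand, 5′ to 3′, with the element in capitals. In GRCm38 they lie at chr11:52098787-52098816 (plus strand, 18 bases between the element and the start), chr7:4501731-4501760 (minus strand, 61 bases) and chr7:138846327-138846356 (plus strand, 13 and 40 bases). GENCODE places the starts of Ppp2ca and Ppp2r2d further upstream, at bases 52098681 and 138846079. In that annotation their elements lie within the genes.
Ppp2ca: tgacgctggcgTGACGTCAccacgccgggc
Ppp1r12c: ggtcggcgccgTGACGTCAatataccgagc
Ppp2r2d: gcggagggggaTGACGTCAtccggcggggc
The log2 fold changes of these genes were -2.70 for Ppp2ca, -0.08 for Ppp1r12c and -0.19 for Ppp2r2d. By the RefSeq starts, the same 8 letters stood before a gene that fell and before genes with small differences that did not pass the test.

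Ppp4r2 had a fall of the same size, and its 250 bases before the start (GRCm38, chr6:100833388-100833637, plus strand) held no such element. They are shown with their GC box, searched as GGGCGG on both strands, in capitals.
Ppp4r2: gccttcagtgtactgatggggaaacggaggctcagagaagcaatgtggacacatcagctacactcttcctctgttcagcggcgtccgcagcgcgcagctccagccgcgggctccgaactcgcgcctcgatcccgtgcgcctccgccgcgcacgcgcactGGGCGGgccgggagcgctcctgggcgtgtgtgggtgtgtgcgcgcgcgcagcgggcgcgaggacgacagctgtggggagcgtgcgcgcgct
A GC box stood in 59.7% of member start sites and in 32.7% of all. The GC content of this stretch was 70.4% with 35 CpG, and that of the matching stretch of Ppp2ca was 73.6% with 30 CpG. The medians over all start sites were 52.4% and 6 CpG. Some members that did not pass had like values, such as Ppp1r12a (75.2%, 30 CpG) and Ppp1cc (72%, 33 CpG). Others were lower, such as Ppp1r11 (49.6%, 5 CpG). The M-box CATGTG, a form of the site of the melanocyte factor MITF, was found in 4.17% of member start sites and 12.3% of all, and the E-box CACGTG in 4.17% and 6.02%. TATAAA was found in 6.94% and 12.4%, and CCAAT in 29.2% and 33.8%, each on either strand. No factor was measured at these sites.

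Among the 10 catalytic genes tested, Ppp2ca alone passed the adjusted limit, and it fell. It encodes the catalytic subunit alpha of PP2A. Ppp2ca lies at chr11:52098681-52127778 (GRCm38, plus strand). Its CPM was 221 and 286 in shControl 1 and 2, and 21.8 and 53.4 in shLmna 1 and 2. The groups did not overlap, as in 60.1% of all tested genes, and shLmna 1 was the lowest library. The mean went from 253 ± 46.0 to 37.6 ± 22.4 (SD, n = 2), and the log2 fold change was -2.70 (SE 0.297, adjusted p = 0.000312 by edgeR). With each library left out in turn the value lay between -3.53 and -2.24, and it passed the test in all 12 alternative settings tried, with a smaller value of -1.28 on the authors' batch-corrected log2 values. On those batch-corrected values Lmna was also smaller, at -1.54 beside -2.61 in the counts. In bulk RNA, less transcript in every cell and fewer cells with the transcript cannot be told apart. The counted 3′ end of Ppp2ca had a GC content of 47.0%, equal to the median of all tested genes. The annotation places 9430098F02Rik and Gm26551 on the other strand of this window, and whether counting used strand is not stated in the sources used here. Mir3061 lies on the same strand and had 0 to 1 count.

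Its paralog Ppp2cb, the gene of the catalytic subunit beta, did not pass. CPM was 125 and 151 in shControl and 115 and 104 in shLmna, with a log2 fold change of -0.33 (SE 0.141, 95% interval -0.64 to -0.02, adjusted p = 0.147). The shLmna libraries were both below the shControl libraries, and the value passed without shControl 1 (adjusted p = 0.0220) and on the batch-corrected log2 values (0.0456). Summed over both genes, the PP2A catalytic level was 345 and 437 CPM in shControl and 137 and 158 in shLmna, a ratio of means of 0.377.

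The share of Ppp2ca among PP2A catalytic counts was 63.9% (95% Wilson interval 61.1 to 66.7) and 65.4% (63.1 to 67.7) in shControl 1 and 2. In shLmna 1 and 2 it was 15.9% (12.4 to 20.1) and 33.9% (30.1 to 37.8). Ppp2ca was thus the larger part of the pair in both shControl libraries and the smaller part in both shLmna libraries. The means, 64.7% ± 1.06 and 24.9% ± 12.7 (SD, n = 2), differed by -39.8 percentage points, with an exact two-sided permutation p of 0.333, the smallest that 2 against 2 libraries allow. The shLmna libraries differed from each other by more than the counting intervals, which cover counting error only.

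**Figure D1:**
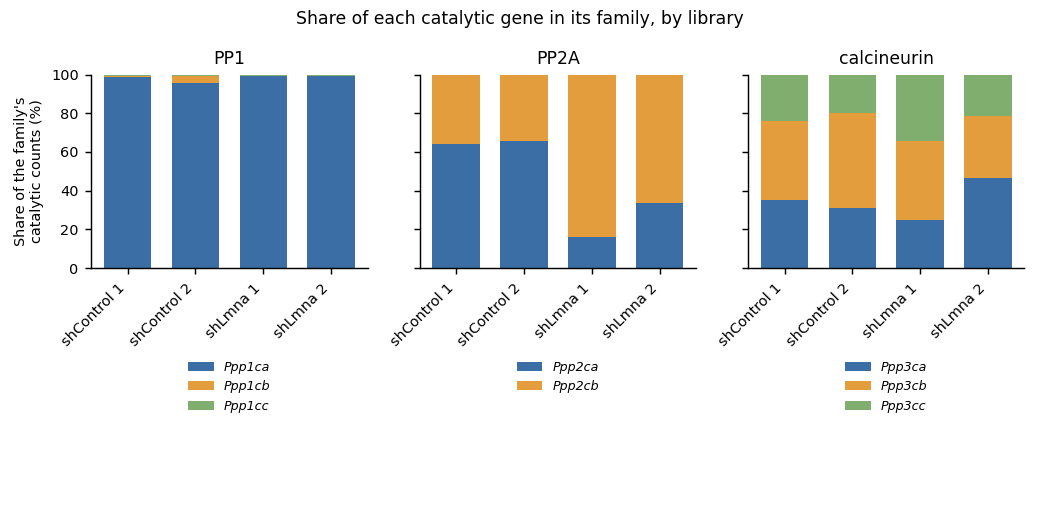
Stacked bars give the share (%) of each catalytic gene in the counts of its family, 1 bar per library, for PP1, PP2A and calcineurin. In PP2A, Ppp2ca made up 63.9% and 65.4% in shControl and 15.9% and 33.9% in shLmna, PP1 was nearly all Ppp1ca, and the shares within calcineurin overlapped between the groups.

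The catalytic genes of PP1 were mostly read as Ppp1ca. Its CPM of 598 and 535 in shControl and 594 and 554 in shLmna overlapped (log2 fold change 0.02, SE 0.121, 95% interval -0.25 to 0.29, adjusted p = 0.945). Rad9a lies on the other strand of its counted window and had -0.77 (adjusted p = 0.0133). Ppp1cc was low, at 13 and 16 counts for shControl and 8 and 14 for shLmna. Of the 31-base words of its 3′ end, 26.9% also occur in other genes, most of all in Ppp1ccb, so that its counts are uncertain. Its log2 fold change was -0.23 (SE 0.427).

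Ppp1cb, the gene of the beta isoform that works with the myosin-targeting subunits, did not enter the test because of low counts. It had 7 counts in shControl 1, 75 in shControl 2, 4 in shLmna 1 and 5 in shLmna 2. A single library, shControl 2, stood above the other 3, and its share of PP1 catalytic counts was 3.59% (95% Wilson interval 2.87 to 4.47) against 0.359% (0.174 to 0.739) in shControl 1. Without the filter on low counts the fit gave -2.92 with an adjusted p of 1.54e-08. When shLmna 1 or shLmna 2 was left out it gave adjusted p of 0.193 and 0.292, and it was not testable without shControl 2. The value for Ppp1cb therefore rested on shControl 2.

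**Figure D2:**
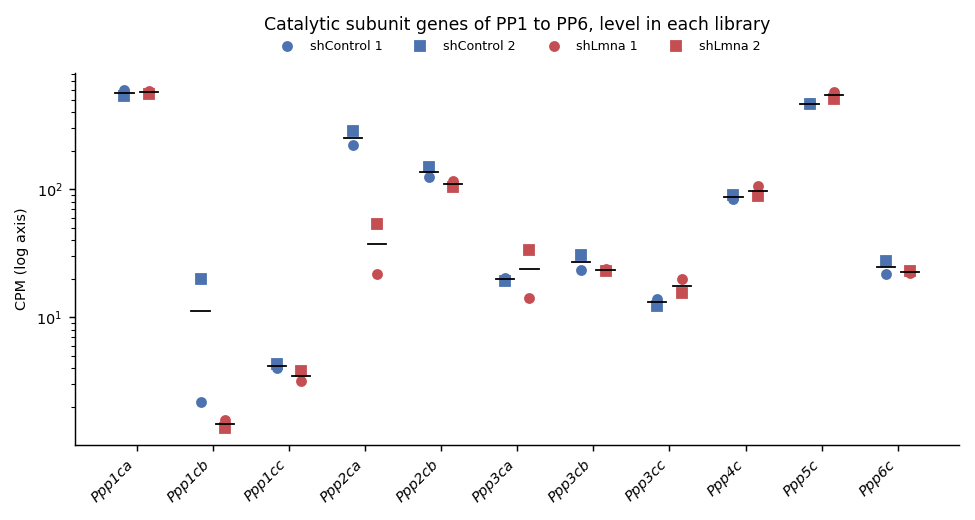
Points give the CPM (log axis) of the 11 catalytic subunit genes in each library, with blue for shControl, red for shLmna, circles for replicate 1, squares for replicate 2 and black lines for group means. Ppp2ca separates the groups from 221 and 286 to 21.8 and 53.4 CPM, and Ppp1cb is raised in shControl 2 alone.

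The other catalytic genes did not pass. The calcineurin A genes had log2 fold changes of 0.31 (Ppp3ca, SE 0.341), -0.22 (Ppp3cb, SE 0.221) and 0.42 (Ppp3cc, SE 0.250). Ppp3ca differed most within a group, with 14.2 CPM in shLmna 1 and 33.8 in shLmna 2 around the shControl values of 20.4 and 19.3. The values were 0.15 for Ppp4c (SE 0.142), 0.22 for Ppp5c (SE 0.121) and -0.14 for Ppp6c (SE 0.219), and their 95% intervals together ran from -0.63 to 0.49. Of the 10 catalytic genes tested, 1 passed and fell (10%), where 15.2% of all tested genes passed in either direction. The median log2 fold change of the catalytic genes was -0.06.

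The genes of the scaffold subunits, which hold the PP2A trimer together, did not pass the test. Ppp2r1a had 341 and 347 CPM in shControl and 392 and 366 in shLmna, and Ppp2r1b had 39.6 and 47.4 against 58.9 and 53.1. Both lay higher in each shLmna library, at 0.14 (SE 0.119, adjusted p = 0.471) and 0.36 (SE 0.166, adjusted p = 0.182), respectively. The ratio of catalytic to scaffold counts was 0.908 and 1.11 in shControl and 0.305 and 0.376 in shLmna. The groups did not overlap in this ratio, whose means were 1.01 ± 0.142 and 0.340 ± 0.0506.

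Of the variable B subunits of PP2A, which choose its substrates, Ppp2r3c passed. It encodes a calcium-binding subunit of the B″ type, and its counts were 20 and 24 for shControl and 1 and 7 for shLmna. The groups did not overlap, and pooled over libraries the ratio of shLmna to shControl was 0.204, with a 95% counting interval of 0.0831 to 0.439. The fit gave -2.28 (SE 0.565, adjusted p = 0.0241). With DESeq2 the adjusted p was 0.144, and without shLmna 1 or shLmna 2 it was 0.177 and 0.0649, so that this call does not hold across settings.

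The B55 and B56 subunits, which act in mitotic exit and at the centromere among other places, had smaller differences. None of the 2 tested B55 and 5 tested B56 genes passed. Ppp2r2d was at -0.19 and Ppp2r2a at 0.50, the latter from 21 to 31 counts per library. Among the B56 genes the values ran from -0.31 (Ppp2r5d) to 0.50 (Ppp2r5e), with Ppp2r5c at 0.30 (SE 0.118, adjusted p = 0.123), and summed over the 5 genes the level was 375 and 371 CPM in shControl and 411 and 399 in shLmna. Ppp2r4, now called Ptpa, an activator of PP2A, had 371 and 348 CPM in shControl and 317 and 339 in shLmna (-0.13, SE 0.121, adjusted p = 0.504).

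In PP4, the regulatory subunit gene Ppp4r2 fell while the catalytic gene did not pass. PP4 acts on the marks of DNA damage and at centrosomes, and Ppp4r2 joins its catalytic subunit to the R3 subunits. Ppp4r2 lies at chr6:100833622-100869934 (GRCm38, plus strand) and had 44.6 and 79.8 CPM in shControl and 15.8 and 4.63 in shLmna. Every shLmna value was below every shControl value, with the replicates of each group apart by more than 1.5 times. The log2 fold change was -2.70 (SE 0.440, 95% interval -3.69 to -1.72, adjusted p = 0.00308). It passed in all 12 alternative settings, at -0.72 on the batch-corrected log2 values, with DESeq2 at an adjusted p of 0.0374, and lay between -3.74 and -1.96 with each library left out. The ratio of Ppp4r2 to Ppp4c counts was 0.529 and 0.884 in shControl and 0.149 and 0.0523 in shLmna. Ppp4r1 was at 0.20 (SE 0.142, adjusted p = 0.377), and Ppp4r4 had no count.

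In calcineurin, the calcium-dependent phosphatase of NFAT factors, the B subunit gene Ppp3r1 rose while none of the 3 A subunit genes passed. Ppp3r1 (chr11:17159263-17200375, GRCm38, plus strand) had 60.4 and 75.5 CPM in shControl and 132 and 105 in shLmna. The groups did not overlap. The log2 fold change was 0.79 (SE 0.165, adjusted p = 0.0106), and with DESeq2 the adjusted p was 0.00727. It passed in 11 of 12 alternative settings and not without shLmna 1 (0.63, adjusted p = 0.113). Wdr92 overlaps the counted window on the same strand and had 0 to 1 count per library. Ppp3r2, the testis form of the B subunit, had 0 counts in all libraries, and a count of 0 allows up to 3 counts in a library. The ratio of B to A counts was 1.04 and 1.21 in shControl and 2.29 and 1.45 in shLmna.

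Of the 3 members grouped here as bringing PP1 to actin, 2 fell, beside 9.74% of all tested genes. Ppp1r9a encodes neurabin and Ppp1r9b spinophilin, scaffolds that bind actin filaments and PP1. Ppp1r9a had 35.0 and 28.9 CPM in shControl and 13.4 and 17.4 in shLmna, a log2 fold change of -1.03 (SE 0.233, adjusted p = 0.0161). Ppp1r9b had 91.1 and 109 CPM in shControl and 68.4 and 63.8 in shLmna, a log2 fold change of -0.60 (SE 0.146, adjusted p = 0.0221). In both genes each shLmna library was below each shControl library. With DESeq2 the adjusted p was 0.0686 and 0.0723, and neither passed without shLmna 1 or without shLmna 2, nor did Ppp1r9b without shControl 2 (0.0586), so that these calls are less firm than those of Ppp2ca and Ppp4r2. The third gene of the group, Ppp1r18, of the actin-capping protein phostensin, overlapped between groups at -0.08 (SE 0.161).

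Ppp1r13b rose. It encodes ASPP1, a binding partner of p53 that also binds PP1. CPM was 15.8 and 22.8 in shControl and 42.3 and 34.3 in shLmna, and the groups did not overlap. The log2 fold change was 0.97 (SE 0.237, adjusted p = 0.0221), and the call was lost with DESeq2 (adjusted p = 0.0613) and without shLmna 1 or shLmna 2 (0.142 and 0.0723). Zfyve21 lies on the other strand of the counted window and was at 0.01. Ppp1r13l, of the related inhibitor iASPP, was at -0.31 (SE 0.241, adjusted p = 0.431).

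**Figure D3:**
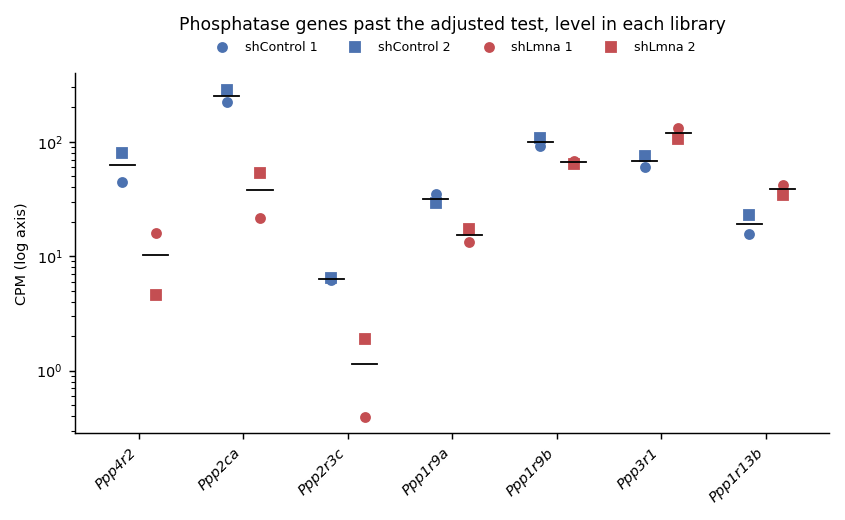
Points give the CPM (log axis) of the 7 members with an adjusted p under 0.05 in each library, with blue for shControl, red for shLmna, circles for replicate 1, squares for replicate 2 and black lines for group means. Log2 fold changes run from -2.70 for Ppp4r2 to 0.97 for Ppp1r13b. The groups do not overlap in any of the 7, which were picked by adjusted p in these same libraries. The same holds for 60.1% of all tested genes.

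The remaining PP1 regulators did not pass. None of 4 tested myosin-targeting genes did, and Ppp1r12a, the gene of the myosin phosphatase subunit MYPT1, was at 34 and 26 counts for shControl and 19 and 35 for shLmna. Ppp1r16b, of the endothelial regulator TIMAP, had the largest difference of any member that missed the limit, at 1.56 (SE 0.539, adjusted p = 0.0835) from 6 and 8 counts for shControl and 22 and 14 for shLmna. Ppp1r15b, of the constitutive eIF2alpha phosphatase subunit CReP, had 82.4 and 98.5 CPM against 115 and 119, at 0.37 (SE 0.137, adjusted p = 0.103). The nuclear regulators Ppp1r10 (PNUTS), Ppp1r8 (NIPP1) and Ppp1r7 (SDS22) lay between -0.05 and 0.27.

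The inhibitor genes Ppp1r2, Ppp1r11 and Ppp1r14b lay between -0.33 and 0.01. Of the 31-base words of the Ppp1r14b end, 39.5% are shared with other genes, most of all with Gm7332, so that its count is uncertain. Of the 7 glycogen-targeting genes Ppp1r3a to Ppp1r3g, 1 was tested, Ppp1r3f, whose 3′ end is shared in full with other genes, most of all with Gm36995. Ppp1r35, a centriolar protein gene, was at -0.77 (SE 0.244, adjusted p = 0.0641), with 64 and 71 counts against 32 and 38. Ppp1r21 was at -0.51 (SE 0.222, adjusted p = 0.157). The regulators of PP6 did not pass either, with Ppp6r1 at -0.02, Ppp6r3 at 0.22 and Ppp6r2 at -0.59 (SE 0.360) from 24 and 25 counts against 11 and 18.

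Counted over all members, 49 of 79 had enough counts to be tested. Of the 30 not tested, 16 had no count and 29 had at most 9 counts in every library, the exception being Ppp1cb. Of the 49 tested, 7 had an adjusted p under 0.05 (14.3%), beside 15.2% of all 9150 tested genes. Of these 5 fell, beside 9.74% of all genes, and 2 rose, beside 5.48%. With limits also of more than 1 in log2 fold change and more than 5 in mean normalized count, 4 were called lower (Ppp2ca, Ppp4r2, Ppp1r9a and Ppp2r3c), beside 5.88% of all genes, and 0 higher, beside 1.76%. At an unadjusted p under 0.05 there were 14 members (28.6%), beside 30.1% of all tested genes. The CPM of the groups did not overlap in 30 of 49 members (61.2%), beside 60.1% of all tested genes, and the median log2 fold change was -0.01 in the members and -0.0011 in all genes. Members thus changed about as often as genes in general.

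Catalytic and regulatory genes were set side by side. Of 10 catalytic genes 1 passed and fell (10%), and 6 of 39 regulatory genes passed (15.4%), with 4 lower and 2 higher. Over all tested genes 15.2% passed. The medians were -0.06 and -0.01 and the ranges -2.70 to 0.42 and -2.70 to 1.56. These counts are a description, and the difference between the classes was not tested.

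**Figure D4:**
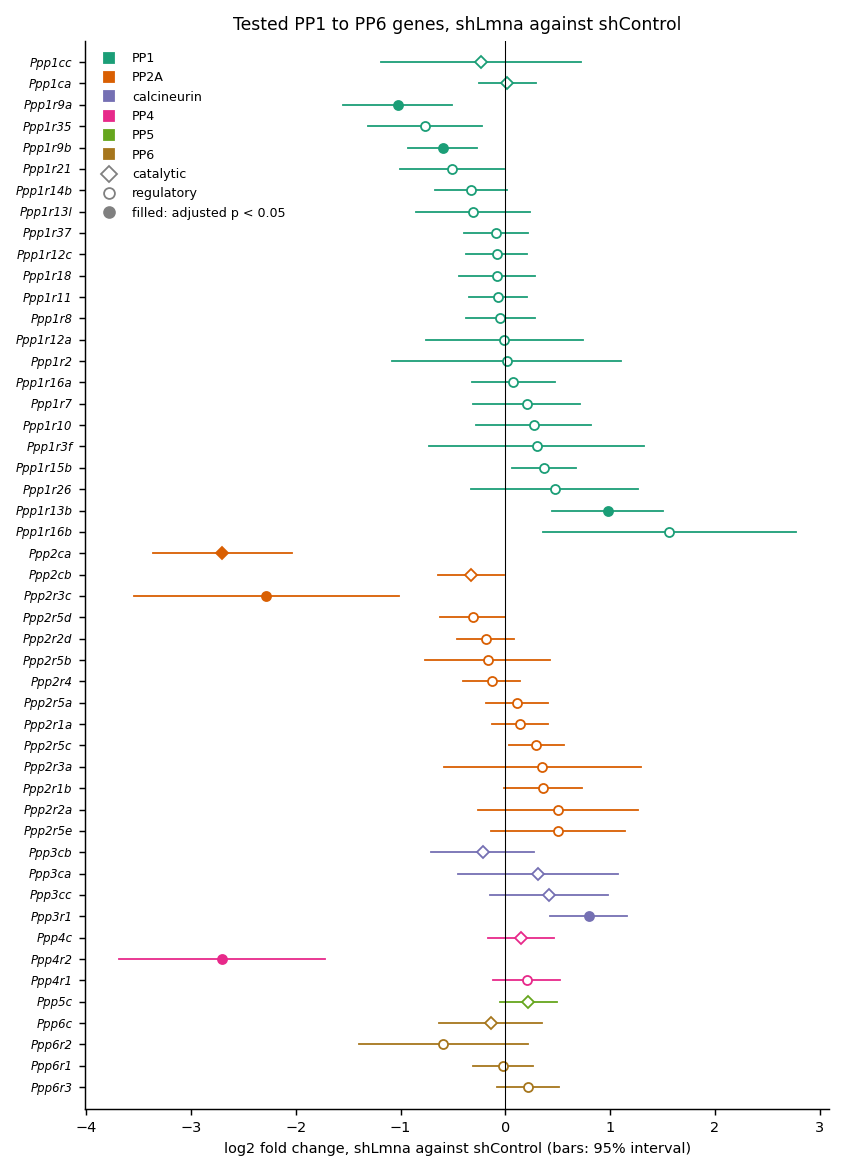
Points give the log2 fold change of shLmna against shControl for the 49 tested members, with bars for the 95% interval, colours for the family, diamonds for catalytic and circles for regulatory genes, filled where the adjusted p was under 0.05. Most members lie near 0, and Ppp2ca, Ppp4r2 and Ppp2r3c lie at -2.70, -2.70 and -2.28.

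Base composition of the counted end moved with both the falls and the rises in these libraries. Over all tested genes with a GC content of at most 42% in the last 1000 transcript bases, 19.4% fell and 8.59% rose. The shares among all tested genes were 9.74% and 5.48%. Of the tested members 10 met that limit, of which 3 fell (Ppp4r2 at 39.7%, Ppp2r3c at 40.3% and Ppp1r9a at 41.1%) and 1 rose (Ppp3r1 at 38.7%). Ppp2ca, at 47.0%, and Ppp1r9b, at 56.4%, lay above it. With a correction for the trend of counts on GC in each library, all 7 members passed. Their log2 fold changes were -2.76 (Ppp2ca), -2.76 (Ppp4r2), -2.35 (Ppp2r3c), -1.11 (Ppp1r9a), -0.53 (Ppp1r9b), 0.77 (Ppp3r1) and 1.01 (Ppp1r13b). The correction removes an average trend only, and a wider spread of changes at low GC, in both directions, would remain after it.

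**Figure D5:**
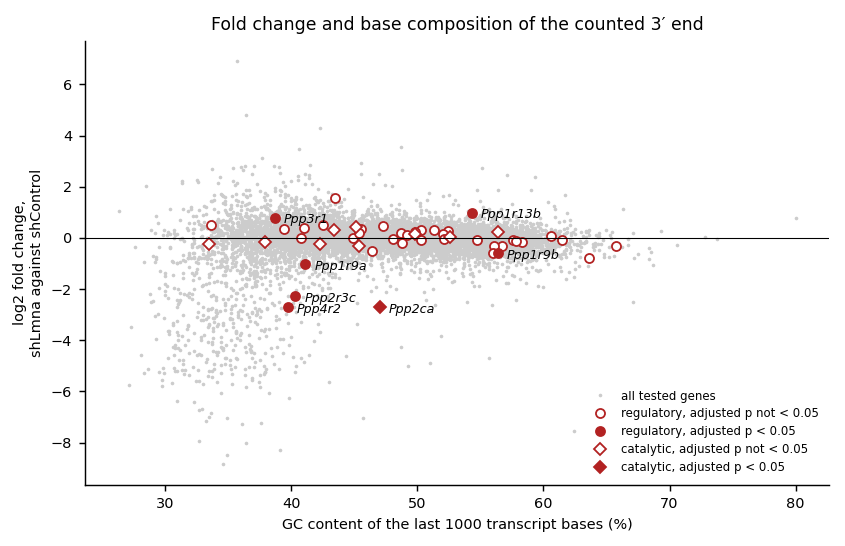
Each point is a tested gene, with the GC content of the last 1000 transcript bases (%) on the horizontal axis and the log2 fold change of shLmna against shControl on the vertical axis, in grey for all genes and red for members (diamonds catalytic, circles regulatory, filled where the adjusted p was under 0.05). Large falls in grey gather at low GC, where Ppp4r2, Ppp2r3c and Ppp1r9a lie, while Ppp2ca lies at 47.0%.

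Genes of other proteins that bind or inhibit these phosphatases, with Ppp1r15a among them, were read from a list. It held 43 genes of the matrix outside the members, and 30 were tested. Of these 5 fell and 3 rose, together 26.7% of those tested beside the 15.2% of all genes, and the median was -0.0003. The list was chosen with results of these data known, and nothing is read from its share. C330027C09Rik, now called Cip2a, an inhibitor of PP2A, was at 115 and 169 counts for shControl and 2 and 5 for shLmna, at -5.12 (SE 0.354, adjusted p = 2.01e-05). Pooled over libraries the ratio was 0.0277 (95% counting interval 0.0110 to 0.0578). Its counted end had a GC content of 28.6%, and with the GC correction the value was -4.17 (adjusted p = 6.95e-05). Anp32e, of a histone chaperone related to the PP2A inhibitor ANP32A, had 73.7 and 77.1 CPM against 11.1 and 17.2, at -2.38 (SE 0.211, adjusted p = 7.45e-05).

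Genes of the complex STRIPAK, in which striatins hold PP2A beside kinases, moved in both directions. Strn3, a striatin, was at 20 and 63 counts for shControl and 1 and 2 for shLmna, a pooled ratio of 0.0406 (95% counting interval 0.00821 to 0.123, adjusted p = 0.00298 by edgeR), and without shLmna 2 its adjusted p was 0.0565. Fgfr1op2 fell (-1.53, SE 0.328, adjusted p = 0.0124), though not without shLmna 2 (adjusted p = 0.141). Mob4 rose, from 56.4 and 64.5 CPM to 110 and 133 (1.01, SE 0.150, adjusted p = 0.00177), with 14.8% of its end shared with other genes. Strn4 was at 0.26 (adjusted p = 0.244).

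Of the R3 subunits that join Ppp4r2 in PP4, Smek1 fell from 61.9 and 64.5 CPM to 23.3 and 27.0 (-1.32, SE 0.170, adjusted p = 0.000777), and Smek2 was at 0.65 (SE 0.263, adjusted p = 0.130). The counted end of Smek1 had a GC content of 32.4%, and with the GC correction its value was -0.83 (adjusted p = 0.0128). Ensa and Arpp19, which inhibit PP2A with a B55 subunit in mitosis, rose at 0.51 (SE 0.127, adjusted p = 0.0234) and 1.85 (adjusted p = 0.0381). Arpp19 was at 3 and 8 counts for shControl and 13 and 23 for shLmna, a pooled ratio of 3.68 (95% counting interval 1.83 to 8.01). Both calls were lost with DESeq2 (adjusted p = 0.0924 and 0.278) and without either shLmna library. That of Arpp19 was also lost without shControl 1 (adjusted p = 0.108) and on recovered counts (0.0506). Other handlers of PP2A did not pass: Set, an inhibitor, at 0.30, Igbp1 (alpha4), a chaperone of free catalytic subunits, at 0.19, and Ppme1, the methylesterase of the catalytic tail, at -0.13. Tiprl had no count.

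The PPM phosphatases, which act on the same residues with an unrelated fold and mostly without such subunits, served as a list for comparison. The list also held Ppef1 and Ppef2 of PP7, another family, which had no count. Of 20 genes 15 were tested, 1 fell and 0 rose (6.67%, beside 15.2% of all genes), and 4 had an unadjusted p under 0.05 with edgeR (26.7%, beside 30.1%). Ppm1g, which acts on splicing factors and histones, had 477 and 522 CPM in shControl and 276 and 310 in shLmna (-0.77, SE 0.126, adjusted p = 0.00333), with the groups apart. The call was lost without shLmna 1 (adjusted p = 0.0673).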

How the data were processed

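Members and lists were chosen with earlier results of these data known. Per the study's methods and GEO's labels, the authors ran bulk MARS-seq reads through UTAP (Cutadapt, STAR 2.4.2a, mm10, HTSeq), with tags counted over the last 1000 bases of RefSeq genes and 100 bases downstream. The raw counts per gene symbol that the authors deposited were used for every main value. A second table deposited by the authors held a signal (counts divided by a size factor) with their p-values and adjusted p-values, which were not used. From its signal, whole counts were recovered for 100% of values in each library (tolerance 0.02), and the matrix exceeds them by 1.08 to 1.09 times. Another deposited table held log2 values corrected by the authors with ComBat, with batches not named.

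The main test was edgeR 4.0.16 with glmQLFit and glmQLFTest (R 4.3.3; TMM, filterByExpr, group as the term, two-sided, Benjamini-Hochberg over 9150 genes). The biological coefficient of variation was 0.126. On data simulated for this comparison over 9150 genes, 72% of genes changed by 1 and 88% of those changed by 2 (log2) were recovered. Of the calls, 2.44% were false. The simulated spread followed the trend over genes alone, so that these rates do not cover genes with more spread of their own. Alternatives used DESeq2 1.42.0, limma 3.58.1 and other settings given further on. Named are all catalytic genes, Ppp2r1a, Ppp2r1b, Ppp3r1, Ppp3r2, each member that passed, the 5 smallest and 5 largest differences that did not, untested members over 10 counts, and listed partners that passed with Set, Cip2a, Igbp1, Ppme1 and Tiprl; further members are named for their role, chosen after their values were seen. Sums and ratios of genes were also added after the values were seen. GC content and shared 31-base words come from GENCODE M21 transcripts. Counting intervals cover counting error only.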

Additional observations from a re-analysis of the deposited data

How the results depend on the processing

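Ppp2ca and Ppp4r2 passed under all 12 alternatives, and Ppp3r1 under 11. With DESeq2, 2 members fell, 1 rose and 2 were called lower by the 3 limits. Those that passed were 6.12% of the tested members, beside 9.21% of all tested genes. On the batch-corrected log2 values with limma, 12 fell, 9 rose and 1 was called lower. There 40.4% of the tested members and 36.3% of all tested genes passed. The 7 members had log2 differences of -1.28 to 0.33, smaller than in the counts. The value of Lmna was smaller as well, at -1.54 beside -2.61. With the replicate block 6 fell and 4 rose, together 20.4% of the tested members beside 22.6% of all tested genes. Replicate numbers showed no pairing of the samples, so the block is given for its counts only. The deviations of shControl 1 and shLmna 1 from their group means had a correlation of 0.0129 over 9150 genes. In 4 settings a single member was called higher by the 3 limits, but not the same one. It was Ppp1r13b with library totals (1.01) and with the GC correction (1.01). Without the filter on low counts (1.58) and with the replicate block (1.53) it was Ppp1r16b. With the GC correction the catalytic median was 0.0798.

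With each library left out in turn, a group kept a single library, so that numbers of members that passed are not given for these fits. The catalytic median lay between -0.27 and 0.0112 and the regulatory median between 0.0298 and 0.0904. Differences near 0 changed sign. With the GC correction Ppp3cb was at 0.18 and Ppp1r2 at -0.0651. Ppp1r12a was at 0.0208 with library totals, 0.0056 with the replicate block and 0.0179 with recovered counts, and Ppp6r1 at 0.0082 with library totals. Leaving out libraries gave -0.0632 to 0.10 for Ppp1ca, -0.47 to 0.77 for Ppp3ca, -0.29 to 0.0330 for Ppp6c, -0.43 to 0.70 for Ppp1r2, -0.29 to 0.31 for Ppp1r12a, -0.13 to 0.10 for Ppp6r1 and -0.18 to 0.0734 for Ppp1r8. The cause of these shifts was not tested. A lone library of a group was assumed to vary like the other group. Depth limits the members under about 30 counts, Ppp1cc, Ppp2r3c and Ppp1r16b among them.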
